A study of Drosophila melanogaster with 8 samples.

Results

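AGO2 binding in untreated Kc cells was described from 928 chromatin regions that both mock-treated replicates shared. Kc167 (Kc) is a female Drosophila melanogaster line of embryonic, haemocyte-like cells, and all values come from this 1 line, grown in CCM3 medium. Chromatin association of Argonaute 2 (AGO2) was assayed with the monoclonal antibody 9D6 by chromatin immunoprecipitation and sequencing (ChIP-seq). The series holds 8 samples, of which the 2 mock AGO2 immunoprecipitations, each with peaks called against its own mock input, are described here, whereas the triptolide samples are not. Mock replicates 1 and 2 held 1055 and 1919 peaks. Overlapping intervals of both lists were merged into 2023 intervals, and the 928 that contained a peak of each list (45.9%) were kept as AGO2 regions. Libraries from cells without AGO2 were not analysed here, so the signal is that of the antibody.

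AGO2 is best known as the nuclease of RNA interference in flies. It is loaded with small interfering RNAs made by Dicer-2 and cuts transcripts that pair with them. A fraction of the protein resides in the nucleus, where it has been found on chromatin at promoters of active genes, together with RNA polymerase II. Many fly promoters with paused polymerase carry short GA repeats (GAGA elements), which are bound by GAGA factor, the product of the Trl gene, and by related zinc finger proteins with a BTB domain.

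The sequence under AGO2 summits was rich in GA repeats, and 8 regions are shown for that reason, chosen among the leading ones to cover promoters, introns and intergenic sequence. A summit is the base of highest enrichment in a peak, and a region was given the mean of the strongest summit of each replicate. Each line gives 121 bases around that position on the plus strand of dm6, with matches to the GAGA element (GAGAG, or CTCTC on the other strand) in capitals. The first sequences lie upstream of a transcription start site (TSS) and the last ones in introns and intergenic sequence. None holds an annotated untranslated region (UTR).
noc, chr2L:14490499-14490619: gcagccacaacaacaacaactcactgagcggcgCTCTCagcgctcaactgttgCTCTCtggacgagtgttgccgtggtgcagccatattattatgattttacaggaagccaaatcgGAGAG
ttk, chr3R:31713530-31713650: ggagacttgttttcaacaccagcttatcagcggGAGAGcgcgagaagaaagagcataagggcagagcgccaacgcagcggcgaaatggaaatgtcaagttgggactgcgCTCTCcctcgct
brk, chrX:7307655-7307775: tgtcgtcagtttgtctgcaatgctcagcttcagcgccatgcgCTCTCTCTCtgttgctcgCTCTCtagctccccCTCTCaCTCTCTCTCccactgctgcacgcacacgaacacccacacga
Tet, chr3L:2821171-2821291: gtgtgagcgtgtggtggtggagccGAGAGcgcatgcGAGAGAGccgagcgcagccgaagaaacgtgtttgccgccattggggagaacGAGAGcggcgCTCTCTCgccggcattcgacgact
sd, chrX:15811778-15811898: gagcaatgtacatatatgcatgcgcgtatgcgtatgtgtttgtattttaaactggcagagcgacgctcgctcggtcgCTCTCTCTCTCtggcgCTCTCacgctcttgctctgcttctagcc
simj, intron, chr3L:10681894-10682014: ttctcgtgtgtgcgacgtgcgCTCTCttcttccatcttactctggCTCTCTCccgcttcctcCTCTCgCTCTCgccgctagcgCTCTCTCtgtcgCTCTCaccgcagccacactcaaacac
Eip74EF, intron, chr3L:17563708-17563828: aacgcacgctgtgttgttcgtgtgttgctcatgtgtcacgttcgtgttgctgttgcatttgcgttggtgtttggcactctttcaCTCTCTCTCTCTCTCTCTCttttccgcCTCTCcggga
intergenic region on 3L, chr3L:6904192-6904312: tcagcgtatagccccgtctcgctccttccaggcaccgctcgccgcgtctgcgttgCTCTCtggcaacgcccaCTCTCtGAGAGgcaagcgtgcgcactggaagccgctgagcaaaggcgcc

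The sequences shown held between 2 and 9 matches, overlapping ones included, with 2 at ttk, 8 each at brk and simj and 9 at Eip74EF. Not all leading regions had as many, since the same stretch held 1 match at the region of elB and lncRNA:CR44733, and 0 at the vri region near a TSS. Most of those at Eip74EF lay in 1 long CT repeat, whereas in the noc, ttk and intergenic sequences short elements were scattered. In all, 823 of 923 regions on chromosome arms (89.2%, Wilson 95% interval 87.0 to 91.0%) had a GAGA element within 100 bp of the summit on either side. The element was found in 24.3% of 23581 windows of that length centred on all TSSs, in 24.5% of windows centred 83 bp upstream of those TSSs and in 21.5% of 664860 windows tiled over the chromosome arms. A region window held a median of 3 matches (quartiles 2 and 6, at most 23), with a mean of 4.11 against 0.420 in TSS windows. A match is a description of letters and does not show which protein was bound.

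GAGA elements were concentrated around the summit. In the 823 regions with a match within 100 bp, the nearest was a median of 17 bp from the summit (quartiles 6 and 36 bp). That distance is limited by the choice of regions and by the number of matches per window. A match within 50 bp of the summit was found in 73.9% of regions. The number of matches averaged 0.723 per 25 bp within 25 bp of the summit and 0.0644 per 25 bp at distances of 500 to 1000 bp. Summits of replicates 1 and 2 taken alone gave 88.6% and 89.9% of windows with a match. Measured from the start site instead, matches at bound TSSs were most frequent 100 to 75 bp upstream, with 0.780 per TSS, against 0.0875 in the same bin of all TSSs. All TSSs had their highest count in the next bin, from 75 bp upstream, with 0.0927, so the position is not particular to bound TSSs. Bound TSSs here are the 463 with a summit within 250 bp.

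**Figure D1:**
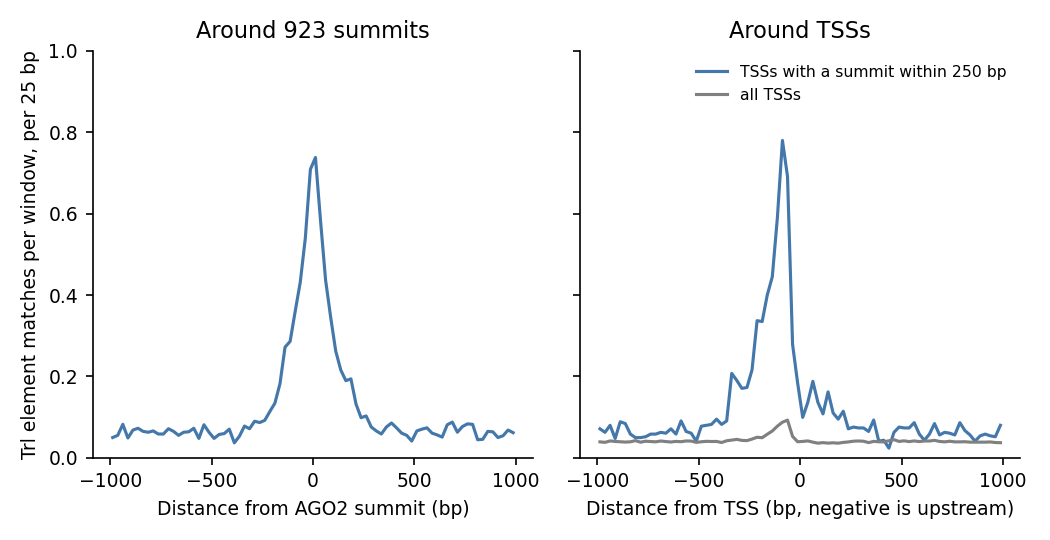
Number of matches to the GAGA element (plotted as Trl element) per window in bins of 25 bp, by distance from the summit of 923 AGO2 regions (left) and from the TSS (right) for 463 TSSs with an AGO2 summit within 250 bp and for all TSSs. Matches peak in the 25 bp after the summit at 0.738, and upstream of bound TSSs at 0.780.

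The GAGA share rose with the peak score, which is derived from the q-value of a peak and is not its fold enrichment. Regions were ranked by their score percentile, the rank of the score within a list on a scale to 100, averaged over both lists. From the lowest to the highest quartile of regions, 74.0%, 90.0%, 93.9% and 98.7% had the element. Promoter regions had it in 90.6% of cases, intronic regions in 88.5%, exonic regions in 81.5% and intergenic regions in 66.7% (50.3 to 79.8%, 36 regions), so that it was also frequent outside promoters. Peaks found in 1 list only had it less often than shared regions, with 44.2% of 86 peaks (34.2 to 54.7%) in replicate 1 and 66.5% of 968 peaks (63.5 to 69.4%) in replicate 2.

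The shares also differed among windows of like base composition. Summit windows had a median GC content of 53.7%, against 42.3% in TSS windows. In windows of 50 to 55% GC, 90.6% of 361 regions had a GAGA element, against 38.3% of 2870 TSS windows. In the windows with the lowest GC content, below 45%, the shares were 80.9% of 47 regions and 18.2% of 14904 TSS windows. With matches in soft-masked repeats left out, 83.4% of regions and 22.3% of TSS windows still held an element.

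Other sequence elements of fly promoters were found at differing shares. The long repeat GAGAGAG, which contains the GAGA element, was found in 54.9% of regions and 4.40% of TSS windows. GAGAGCG, a word singled out after its share was seen, was found in 54.7% and 4.30%. In contrast, the TATA box sequence TATAAA was present in 7.26% of regions, 26.2% of TSS windows and 21.8% of tiled windows. In windows of 50 to 55% GC the shares of regions and TSS windows were 7.48% and 13.9%. Regions had the lower share in each GC bin below 60%, but at 60% or more the shares were close, at 3.13% and 3.5%. TATCGATA, the sequence bound by the replication-related factor Dref, was found in 0 of 923 regions, which allows a share of up to 0.325% by a limit of 3 counts and 0.414% by the Wilson interval, and in 5.45% of TSS windows. CGATA, bound by the insulator protein BEAF-32 and contained in the Dref sequence, was found in 17.6% of regions and 34.7% of TSS windows, and GTCACACT, a core element of housekeeping promoters, in 0.758% and 4.10%. The Initiator sequence TCAGTT was found in 13.4% of regions, 21.2% of TSS windows and 12.4% of tiled windows. Apart from the GAGA element, only TATAAA was compared within windows of like GC content. A CA repeat (CACACACA) was more frequent at summits, with 17.2% against 4.08%, and so was CACGTG, an E-box, with 4.66% against 2.82%. CAGGTAG (0.867% and 1.04%), TTCNNNGAA (3.25% and 5.95%) and TGANTCA (3.36% and 3.91%), sequences bound by Zelda, Stat92E and AP-1, were no more frequent in regions than in TSS windows. All motifs were sought on both strands.

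A smaller number of regions had no GAGA element near the summit. These 100 regions had lower fold enrichment, the ratio of immunoprecipitated over background signal at the summit, with medians of 4.33 and 4.62 in replicates 1 and 2, against 5.27 and 7.21 in the 823 regions with the element. In 71 of the 100 a match was found elsewhere in the interval. Their promoter share was 70.0% (60.4 to 78.1%), against 82.3% (79.5 to 84.7%) of regions with the element. The highest ranked of them, named after their values were seen, lay at CG32813 (9.41 and 8.55 in replicates 1 and 2), inside mam near the hairpin of mir-4978 (7.23 and 14.7) and at E2f1, a cell cycle transcription factor gene (7.23 and 13.1). The mam region counted as a promoter region only through annotated entries for the hairpin, whose end is not the start of a primary transcript. At CG32813 and E2f1 the summits of the replicates lay 470 and 604 bp apart, so that the mean position was at neither of them.

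The replicates were next compared, region by region. Regions had a median fold enrichment of 5.12 in replicate 1 (range 1.94 to 16.1) and 6.91 in replicate 2 (range 1.67 to 23.2), and 674 of 928 were higher in replicate 2. The ranks of regions in both lists were related, with a Spearman coefficient of 0.799 for the score and 0.573 for the fold enrichment across 928 regions, which come from the same pair of libraries. The position of binding was closely shared: summits of both replicates lay a median of 22 bp apart, and within 50 bp of each other in 79.4% of regions. The exceptions with the largest gaps were regions of zfh2 (869 bp), imd and Dp1 (668 bp), E2f1 (604 bp) and gish (562 bp), where the strongest peak in each replicate lay in another part of the merged interval.

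Peaks that were found in 1 list only were weaker. In replicate 1, 950 peaks (90.0%) fell in a shared region and had a median fold of 5.10, and the other 105 had 4.28. In replicate 2, 929 peaks (48.4%) fell in a shared region and had a median fold of 6.91, and the other 990 had 3.94. The regions with the lowest percentiles lay on an X scaffold (folds of 2.49 and 1.67 in replicates 1 and 2), in lncRNA:CR32773 (3.69 and 2.66), in Myo81F (3.23 and 2.42) and at plum and scrib (3.50 and 2.27).

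**Figure D2:**
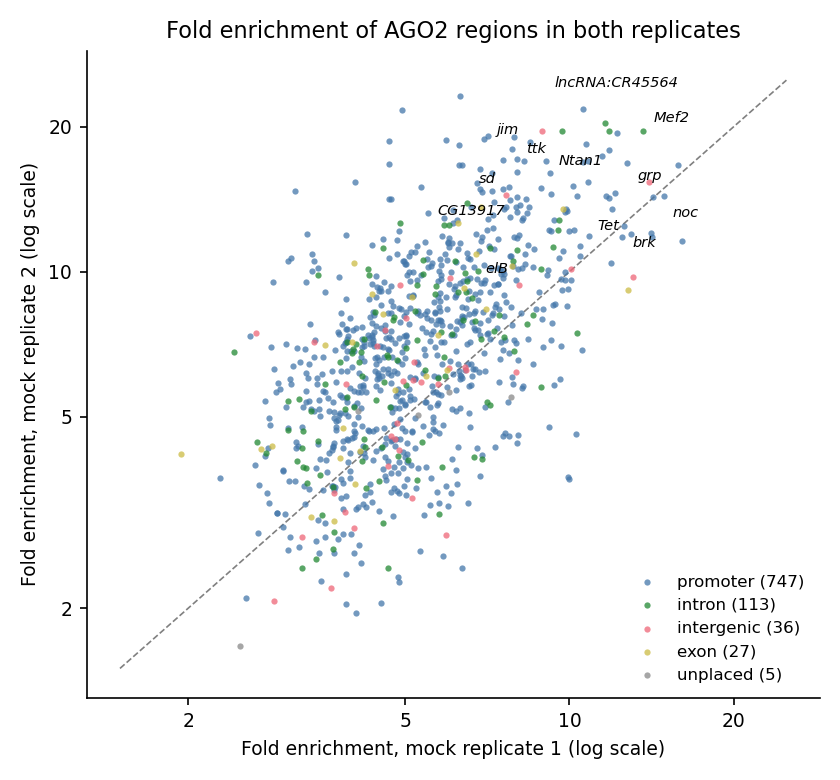
Fold enrichment of the 928 AGO2 regions in mock replicate 1 (x axis, log scale) and mock replicate 2 (y axis, log scale), coloured by class, with the dashed line at equal values and the 12 regions of highest score percentile labelled. Of the points, 674 lie above the line, and the labelled regions are high in both replicates.

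The regions covered 0.603 Mb, with a median width of 581 bp (319 to 2843 bp). Regions were placed in the first matching class of promoter (within 1500 bp of a TSS), exon, intron and intergenic sequence. Promoters held 747 of 923 placed regions (80.9%, 95% interval 78.3 to 83.3%), introns 113 (12.2%), intergenic sequence 36 (3.90%) and exons 27 (2.93%), and 5 regions lay on unplaced scaffolds of X. The summit base itself lay in an intron in 48.5% of regions, in intergenic sequence in 27.1%, in a 5′ UTR in 14.8%, in coding sequence in 4.23% and in a 3′ UTR in 0.758%. The density was 8.28 regions per Mb on X, 7.99 on 2R, 6.52 on 3R, 6.17 on 2L, 5.98 on 3L and 2.97 on the fourth chromosome, where 4 regions were found, all in 1 gene, zfh2. Median fold enrichment was similar between classes, with values of 5.17 and 7.02 in replicates 1 and 2 for promoters, 4.89 and 6.73 for introns, 4.98 and 6.09 for intergenic sequence and 4.55 and 7.14 for exons.

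AGO2 summits at promoters lay just upstream of the start site. Their median position relative to the nearest TSS was −83 bp (quartiles −189 and 49 bp, 747 regions), and −81 and −82 bp with the summits of replicates 1 and 2 alone. Of these summits, 70.5% (67.2 to 73.7%) were upstream of the TSS and 62.0% (58.4 to 65.4%) within 250 bp of it. The bin from 150 to 50 bp upstream held 216 regions, against 32 in the bin from 50 to 150 bp downstream. The asymmetry was clearer where all TSSs within the window pointed the same way, with a median of −91.5 bp and 75.4% upstream (562 regions), than where TSSs of both strands were present, with −45 bp and 55.7% (185 regions). For the 374 promoter regions of highest score percentile the median was −97.5 bp and 78.1% (73.6 to 82.0%) were upstream, and for the other 373 it was −61 bp and 63.0% (58.0 to 67.7%).

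**Figure D3:**
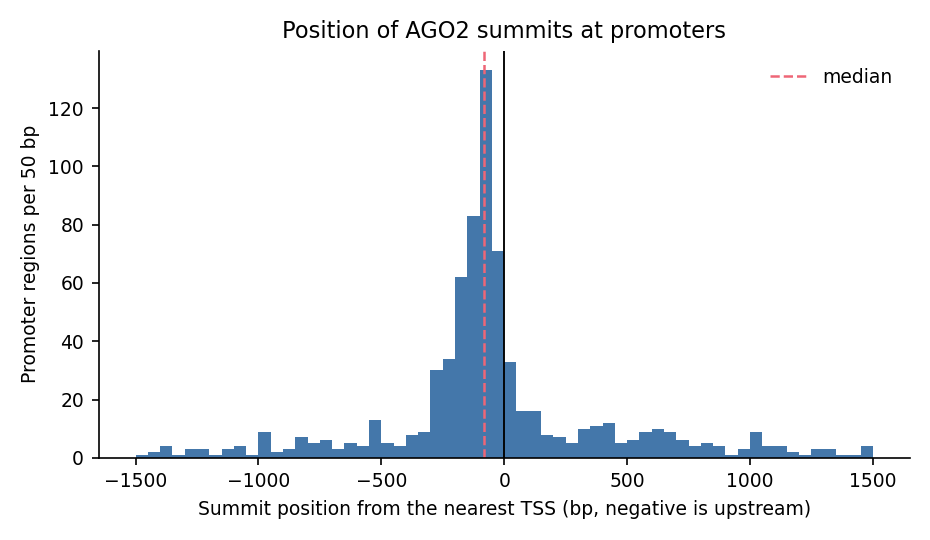
Number of promoter AGO2 regions (y axis, per 50 bp) by the position of the summit relative to the nearest TSS (x axis, bp, negative is upstream), with the TSS as a black line and the median of −83 bp as a dashed line. The tallest bars lie within 150 bp upstream of the TSS, and 29.5% of summits lie downstream.

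Summits were found at promoters inside genes as well as at the outermost one. Of summits within 250 bp of a protein-coding TSS, 213 lay at the TSS at the 5′ end of the gene and 225 at an internal TSS. These are counts of summits, not shares of the TSSs of each kind. In the annotation, 63.2% of bound protein-coding genes had 2 or more TSSs, against 24.3% of the others. Examples with 2 bound promoters were ttk, Syp and msi, described below, in which each summit lay between 453 and 58 bp upstream of a TSS.

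The 12 regions of highest score percentile included several at genes of transcription factors. The highest score percentile was found 300 bp upstream of noc, which encodes a zinc finger protein, with folds of 14.9 and 14.4 in replicates 1 and 2. Next were a region 277 bp upstream of ttk, a BTB zinc finger repressor (8.03 and 17.1), and an intronic region of Mef2, a MADS box factor of muscle differentiation, 3574 bp downstream of a TSS (13.6 and 19.6). brk, a repressor of Dpp target genes, was bound 224 bp upstream of its TSS, inside an intron of the overlapping gene CG1677 (12.6 and 12.4), and again 1223 bp upstream (6.85 and 16.3). These regions were chosen by their rank in both lists, so that high values in both are given by the choice.

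The remaining regions among the 12 with the highest percentiles were likewise near a TSS. They lay 185 bp upstream of Ntan1, an N-terminal asparagine amidase (9.22 and 16.02 in replicates 1 and 2), 128 bp upstream of Tet, a dioxygenase that acts on methylated nucleotides (10.9 and 11.8), and 256 bp upstream of sd, the DNA-binding partner of Yorkie in the Hippo pathway (7.57 and 14.9). Further regions were found 106 bp upstream of jim, a zinc finger gene (8.46 and 18.6), and 101 bp upstream of CG13917 (8.00 and 14.3). Another lay 45 bp upstream of a TSS of lncRNA:CR44733 and was also assigned to elB (6.77 and 9.64). A region 87 bp upstream of a TSS of grp, the Chk1 kinase, was also assigned to CG31807 (12.7 and 16.8). elB is the neighbour and relative of noc, and a region assigned to each gene was in this group. The only one of the 12 with its summit downstream of the nearest TSS apart from Mef2 was at lncRNA:CR45564 and lncRNA:CR45565 (12.2 and 19.4), at a distance of 509 bp. The highest single folds were at Syp in replicate 1 (16.1) and at Pde8 in replicate 2 (23.2).

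Distal regions included some as strong as promoters. The best ranked intronic regions after Mef2 were in simj, which encodes a subunit of the NuRD chromatin remodeller (9.70 and 19.6 in replicates 1 and 2), Eip74EF (8.00 and 11.1) and spin, a lysosomal transporter gene (7.90 and 10.5). Those in intergenic sequence lay at 2R:4270551 to 4271269, 3L:6903951 to 6904536, 3L:27911231 to 27912149 and 2R:20106278 to 20106826 of dm6. Their folds were 7.64 and 14.4, 13.1 and 9.75, 13.99 and 15.4, and 8.92 and 19.6, and their summits lay 27896, 9712, 30321 and 4947 bp from the nearest TSS. The widest regions were at cbt (2843 bp), lncRNA:CR46035 with lncRNA:CR46036 (2299 bp), Trl with CG42507 (2197 bp) and in zfh2 (2014 bp).

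AGO2 regions were then assigned to genes, namely to every gene with a TSS within 1500 bp and otherwise to the gene in which a region lies. In total 984 of 18277 genes (5.38%) were bound, among them 791 of 13968 protein-coding genes (5.66%) and 179 genes of non-coding RNA, of which 129 shared their region with a protein-coding gene. There were 36 regions with no gene, 631 with 1 gene and 256 with 2 or more. One region was assigned to 9 genes, Arpc2, CG10949 and 7 snoRNA genes, and a shared region does not tell which gene it belongs to. None of 99 rRNA genes and 32 snRNA genes was bound, but near-identical copies can be missed because reads that align to several places had been discarded.

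Long genes were bound most often. Bound protein-coding genes had a median length of 11378 bp, and the others 2048 bp. The bound share was 0.945% of the shortest length quartile of protein-coding genes, then 1.63% and 3.52%, and 16.6% of the longest quartile, in which genes span 5000 bp or more. A long gene offers more sequence and more TSSs to which a region can be assigned. The shares of the gene lists below can therefore be read against both 5.66% and 16.6%, the second for their members in the longest quartile.

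Several genes held many separate regions. At least 2 regions were found in 159 genes, of which 145 were protein-coding (1.04% of all protein-coding genes), at least 3 in 44 genes and at least 5 in 8 genes. Neighbouring regions were a median of 59.0 kb apart, and 17.6% of the gaps were below 5 kb. The protein-coding genes with 2 or more regions had a median length of 24376 bp.

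Tlk, a kinase of chromatin assembly, had the most regions, with 9 assigned to this gene of 69764 bp. The outermost lay 1229 bp upstream of its 5′ end, and its nearest TSS was that of Rala. Folds ranged from 2.77 to 9.54 in replicate 1 and from 4.20 to 12.2 in replicate 2, and the strongest lay in an intron 24677 bp from the 5′ end of the gene. Of the 9 summits, 4 were within 260 bp of an annotated TSS. The nearest of these, at 11 bp, was measured from a separate non-coding entry and not from a TSS of Tlk. The hormone gene Eip74EF, an ETS factor induced by ecdysone, had 8 regions, of which only 1 lay at the 5′ end (76 bp upstream, folds of 5.74 and 7.94 in replicates 1 and 2). The region with the highest fold in replicate 2, of 7.74 and 15.03, lay 27 bp upstream of an internal TSS.

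ftz-f1 and Eip75B, both nuclear receptors of the ecdysone cascade, had 6 regions each. In ftz-f1 a region 164 bp upstream of an internal TSS had folds of 11.8 and 17.9 in replicates 1 and 2, against 3.49 and 5.01 for the region at 836 bp from the 5′ end. In Eip75B, 5 of the 6 were at annotated promoters and had folds from 3.56 to 8.93 in replicate 1 and from 2.82 to 9.21 in replicate 2, and the intronic one had 7.16 and 11.2. In both genes the highest fold was at a distance from the 5′ end.

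Raf, the kinase downstream of Ras, had 5 regions, none of them at a promoter, with the strongest 22190 bp from the 5′ end (11.8 and 19.6 in replicates 1 and 2). ush, which encodes a Friend-of-GATA cofactor of haemocyte development, and tara had 5 regions each, with folds of 5.80 and 9.02 at the best ranked region of ush and 9.18 and 12.2 at that of tara. tou, a gene of a chromatin-associated protein, and pnt, an ETS factor of the Ras pathway, had 4 each. Myo81F, an unconventional myosin gene that spans 1965857 bp, had 6 intronic regions with low folds (3.23 to 5.05 and 2.42 to 5.24), and only 1 of them remained when peaks of both lists had to reach a −log10 q-value of 5.

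**Figure D4:**
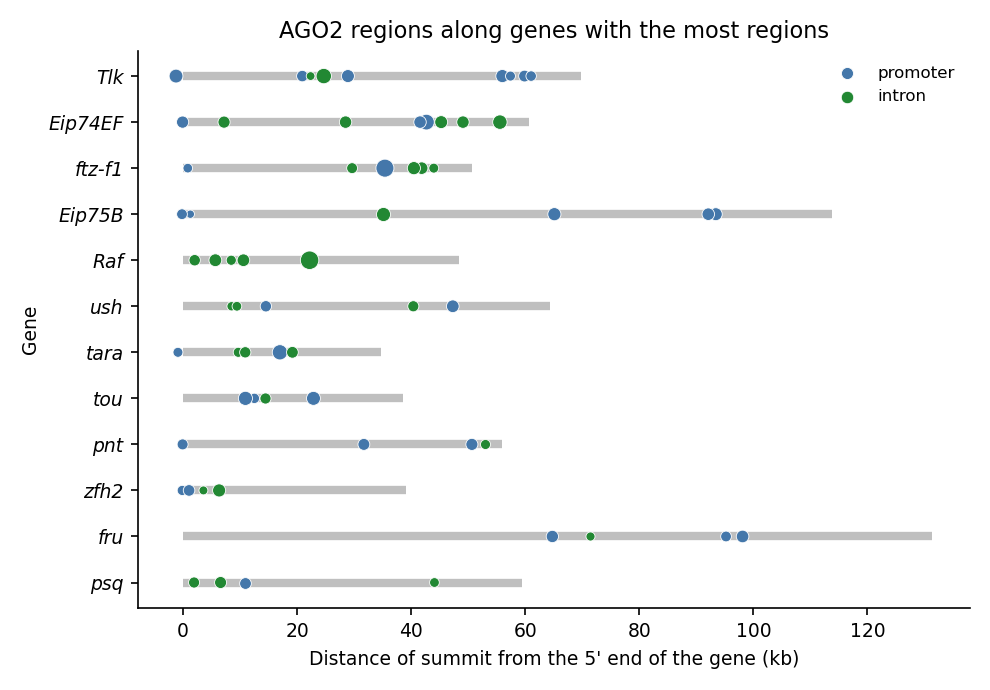
Position of AGO2 summits (x axis, kb from the 5′ end of the gene) along 12 of the genes with the most regions (Myo81F left out for its length), with grey bars for gene length, circles for regions coloured by class and circle area proportional to the mean fold of both replicates. Regions are spread along the genes, as in Tlk with 9 and Eip74EF with 8, and Raf has intronic regions only.

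Gene groups differed widely in the share bound. The lists were chosen with earlier results of these data known. Their order is therefore a description only, and the intervals cover counting error alone. For a gene with several regions, the folds given are those of its region of highest score percentile unless each is listed. The highest share was found for factors with a BTB domain and zinc fingers and other GAGA-binding proteins, with 11 of 18 genes (61.1%, 95% interval 38.6 to 79.7%) and 26 regions. Trl itself, which encodes GAGA factor, had 3 regions, with folds of 7.26, 8.15 and 9.84 in replicate 1 and 11.2, 8.20 and 13.3 in replicate 2. ttk had a second region 58 bp upstream of another TSS (9.90 and 13.4). lola, which directs axon growth, reached 4.66 and 16.8, and bab1, a gene of leg and abdomen patterning, 6.24 and 12.7. Of the longest quartile of genes, 10 of 16 members were bound, against 16.6% of all such genes.

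Genes of the ecdysone response came next, with 15 of 26 bound (57.7%, 38.9 to 74.5%) by 42 regions. Besides Eip74EF, Eip75B and ftz-f1, these were the receptor gene EcR, with 4 regions and folds of 3.99 and 6.77 in replicates 1 and 2, and the nuclear receptor gene Hr3, with 3 regions and folds of 8.19 and 12.8, which shares them with overlapping genes. Among members in the longest quartile of genes, 14 of 19 were bound, beside 16.6% of all such genes.

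In developmental signalling pathways, bound genes included ligands, receptors, kinases, transcription factors and inhibitors. In the EGF receptor and Ras pathway, 10 of 27 genes were bound (37.0%, 21.5 to 55.8%), led by Raf, pnt (6.83 and 6.19 in replicates 1 and 2), mirr, a homeobox gene (7.93 and 7.22), and aop, the ETS repressor Yan (9.19 and 4.76). In the Dpp pathway 10 of 28 were bound (35.7%, 20.7 to 54.2%). These included the ligand gene dpp, 175 bp upstream of a TSS (15.8 and 16.7), its antagonist sog (7.08 and 7.46), the receptor gene wit (4.93 and 21.6) and brk. The folds at wit differed widely between the lists, whereas those at dpp were close. Of members in the longest quartile, 10 of 23 were bound in the EGF receptor and Ras list and 9 of 20 in the Dpp list, beside 16.6% of all such genes.

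In the Notch pathway 9 of 28 genes were bound (32.1%, 17.9 to 50.7%). They included fng, a glycosyltransferase that modifies the receptor (8.25 and 17.0 in replicates 1 and 2), mam, the coactivator (6.35 and 16.7), and 2 targets that encode bHLH repressors, E(spl)m3-HLH (6.62 and 7.88) and E(spl)m8-HLH (5.16 and 8.89), the last sharing its region with the corepressor gene gro. Hedgehog pathway genes were bound in 4 of 15 cases, with 2 regions at the receptor gene ptc (6.35 and 8.47) and further ones at rdx, en and inv. In the JAK-STAT pathway 4 of 15 were bound, namely the receptor dome (10.1 and 9.62), the cytokine genes upd3 (5.90 and 12.51) and upd2 (4.13 and 5.79) and the inhibitor Socs36E. Wnt pathway genes were bound in 5 of 26 cases, with fz, a receptor gene (6.38 and 10.2), sgg, a kinase gene (5.33 and 15.01), gish (9.26 and 7.22) and fz2 (7.21 and 8.13) in the lead. Of longest-quartile members, 5 of 12 Notch, 3 of 9 Hedgehog, 3 of 10 JAK-STAT and 5 of 18 Wnt genes were bound. The shares for comparison were 16.6% of all genes in that quartile and 5.66% of all protein-coding genes.

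The remaining pathway lists gave shares of 13.6 to 23.5%, with wide intervals. Bound were 4 of 17 JNK and TNF genes (23.5%, 9.56 to 47.3%), among them kay, which encodes Fos and had 3 promoter regions, 3 of 22 Toll and Imd genes (13.6%, 4.75 to 33.3%), led by the Toll ligand gene spz (12.98 and 11.96 in replicates 1 and 2), and 3 of 22 Hippo genes, sd, kibra and wts. Of the circadian clock genes 3 of 13 were bound, Pdp1 (8.92 and 7.96), sgg and vri. The Toll and Imd and the Hippo intervals included 5.66%. The intervals of all of these lists, also JNK and TNF and clock (8.18 to 50.3%), included the 16.6% of the longest quartile. Of longest-quartile members 4 of 11 JNK and TNF, 2 of 10 Toll and Imd, 3 of 13 Hippo and 3 of 10 clock genes were bound.

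Genes of RNA-binding proteins were bound in 13 of 39 cases (33.3%, 20.6 to 49.0%). The leading ones were shep (8.45 and 13.7 in replicates 1 and 2), Syp, with 2 regions 222 and 177 bp upstream of TSSs (16.1 and 11.6, then 8.81 and 9.08), msi (11.8 and 14.2 at 91 bp upstream, 6.82 and 11.1 at 453 bp upstream) and cpo (10.2 and 12.2). All 13 are in the longest quartile of genes, of which the list has 31. Chromatin regulators were bound in 15 of 48 cases (31.3%, 19.9 to 45.3%), with Tet, the Polycomb group genes Psc (7.85 and 17.99) and Su(z)2 (8.41 and 11.4), and osa, a subunit of the Brahma remodeller (7.46 and 10.1). Hox genes were bound in 5 of 12 cases (41.7%, 19.3 to 68.0%), namely Ubx (8.58 and 8.15), Antp (6.77 and 4.31), Abd-B (5.82 and 7.49), Dfd (5.05 and 4.18) and Scr (3.74 and 4.70), each with 1 region. Of longest-quartile members, 13 of 32 chromatin regulators and 5 of 8 Hox genes were bound, beside 16.6% of all such genes.

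Cytoskeletal genes gave 9 bound of 35 (25.7%, 14.2 to 42.1%), including Rac2 (10.7 and 18.4 in replicates 1 and 2), chic, which encodes profilin (6.11 and 12.6), Act5C, the cytoplasmic actin gene (7.08 and 7.95), and Moe (4.03 and 5.26). Adhesion and matrix genes gave 4 of 28, namely trol, rhea, shot and mys, and axon guidance genes 4 of 29 (13.8%, 5.50 to 30.6%), namely unc-5, Dscam1, NetA and caps. All 29 axon guidance genes and 25 of the adhesion genes are in the longest quartile, and with 4 bound in each list their shares were near the 16.6% of all such genes. Of longest-quartile members, 5 of 21 cytoskeletal genes were bound. Haemocyte genes were bound in 6 of 25 cases (24.0%, 11.5 to 43.4%). The bound ones were the GATA factor gene srp, with 3 regions (7.403 and 10.2), ush, peb (7.58 and 9.91), kn (7.83 and 6.06), lz (6.30 and 11.5) and Fer1HCH (6.47 and 8.41). All other members of the haemocyte list had no region. Of its longest-quartile members, 5 of 15 were bound. Binding does not measure expression, so the cell type named in the labels could not be checked with these lists.

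**Figure D5:**
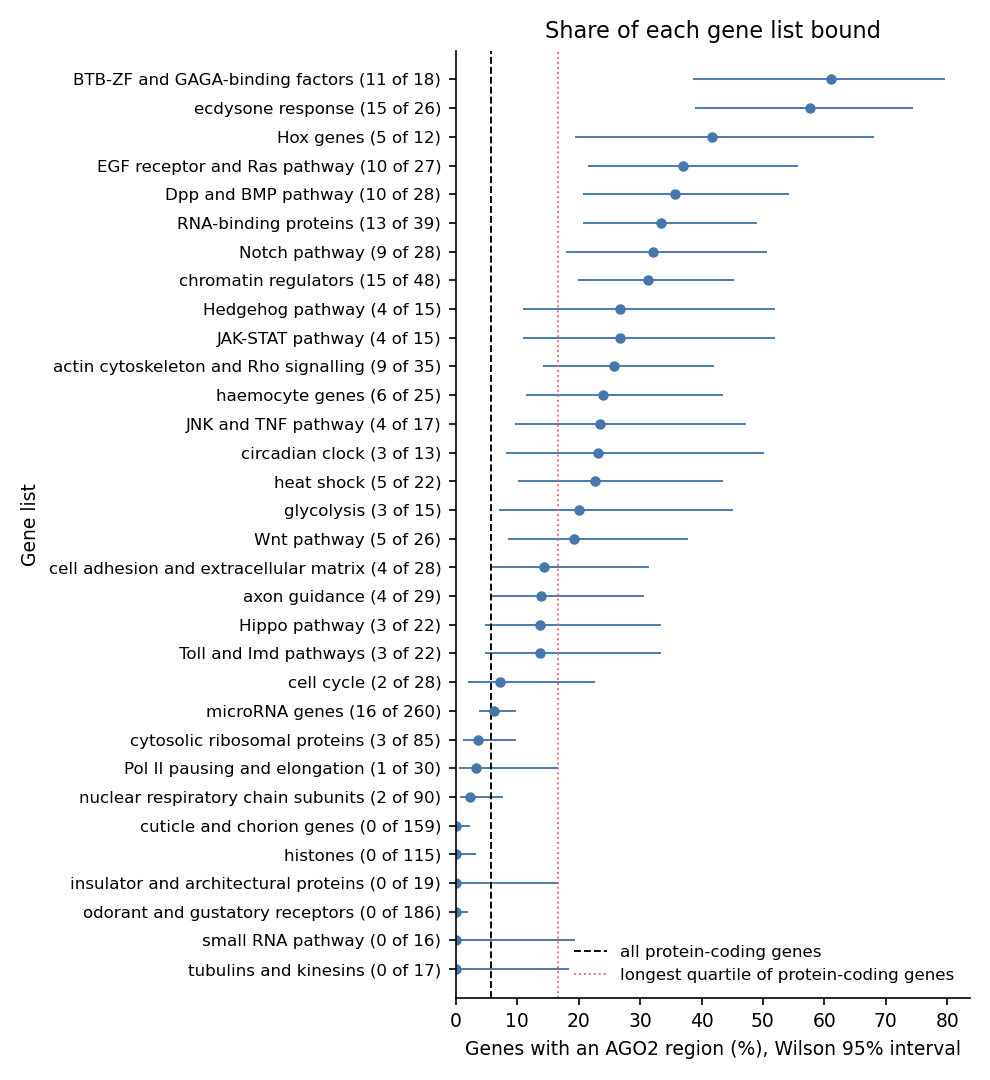
Share of the genes in each list with an AGO2 region (x axis, %, points with Wilson 95% intervals; bound and annotated members in brackets), with a dashed line for all protein-coding genes (5.66%) and a dotted line for their longest quartile (16.6%). BTB zinc finger and ecdysone genes lie highest, and cuticle, receptor and histone genes are at 0.

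The lists of short genes had few bound members, read here against the 0.945% and 1.63% of the shorter length quartiles as well as the 5.66% of all protein-coding genes. Of 85 genes of cytosolic ribosomal proteins 3 were bound (3.53%, 1.21 to 9.87%), with folds of 9.10 and 9.83 at RpS26, 3.33 and 3.54 at RpL7A and 3.46 and 3.05 at RpL24 in replicates 1 and 2. Of 90 nuclear genes of the respiratory chain 2 were bound (2.22%, 0.612 to 7.74%), ND-MLRQ and COX7AL2. No region was assigned to 159 cuticle and chorion genes, which allows a share of up to 2.36% by the Wilson interval, to 186 odorant and gustatory receptor genes (up to 2.02%) or to the histone genes, whose near-identical copies can be missed. The ribosomal and respiratory intervals included both 1.63% and 5.66%. Cell cycle genes were bound in 2 of 28 cases (7.14%), E2f1 and CycE, and tubulin and kinesin genes in 0 of 17. Other genes of general function had higher shares, with 3 of 15 glycolysis genes (20.0%, 7.05 to 45.2%), namely Hex-A, Pgk and Ldh, and 5 of 22 heat shock genes (22.7%, 10.1 to 43.4%). Of the heat shock genes, Hsp22, Hsp67Bc and CG4456 share 1 region (4.71 and 8.69), and with only the gene of the nearest TSS counted, 3 heat shock, 1 glycolysis and 1 cell cycle gene were bound.

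The intervals of the small RNA, pausing and insulator lists all included the 5.66% of all protein-coding genes. Of 16 genes of the small RNA pathway, which include AGO2, AGO1, Dcr-2 and piwi, 0 were bound (Wilson interval up to 19.4%). Of 30 genes of RNA polymerase II pausing and elongation 1 was bound, Su(Tpl), through a region shared with Mi-2 (4.20 and 7.15 in replicates 1 and 2), and of 19 insulator genes 0 (up to 16.8%). Of longest-quartile members, 0 of 9 small RNA, 1 of 8 pausing and 0 of 5 insulator genes were bound, beside 16.6% of all such genes. Among 260 microRNA genes, 16 had a region near the annotated end of the hairpin (6.15%), which is not the start of the primary transcript. With only the gene of the nearest TSS counted, 4 were bound. The highest percentiles were at mir-4955, mir-9388 and mir-4968, which share their regions with trol, Mes2 and Mob2, and at mir-4978, inside mam.

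Genes shown as examples by the study were looked up by name. Traf4, an adaptor of TNF signalling, had a region 84 bp upstream of a TSS with folds of 6.81 and 7.58 in replicates 1 and 2. cv-2, which encodes a BMP-binding protein, had a weaker promoter region (3.53 and 3.51), 46 bp upstream. Socs36E, an inhibitor of JAK-STAT signalling, had its region in coding sequence (3.70 and 3.03), with summits of the replicates 484 bp apart. The nearest TSS, 3036 bp away, was that of another gene, lncRNA:CR44478. vri, a bZIP repressor of the clock, had 2 regions, an intronic one (10.3 and 7.46) and one 1008 bp downstream of a TSS (5.81 and 7.14). Abd-B had an intronic region (5.82 and 7.49), and betaTub60D and AGO2 had none. The study kept peaks called on pooled replicates if any single replicate also had them. The rule used here, a peak in both lists, is stricter.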

How the data were processed

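Both AGO2 ChIP-seq libraries of mock-treated Kc cells were used. Upstream, adapters had been removed by the authors (cutadapt) before alignment to dm6 (bowtie2); alignments below a mapping quality of 20 and duplicates (Picard) had been discarded, and each immunoprecipitate was called against its own input with MACS2 (2.1.1.20160309 in the submitters' processing notes). The deposited lists give, per peak, a score that the authors set to 10 times the −log10 q-value (whole part, 0 exceptions in either list), the fold enrichment (a ratio), the −log10 p-value and −log10 q-value, and the summit offset. The lowest −log10 q-values were 1.35 and 1.39. The depth of each library is unknown, so the number of peaks cannot be told apart from depth, and nothing states whether replicates came from separate cultures.

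Peaks were merged with 1 bp of overlap and annotated with Ensembl release 115 (BDGP6.54, same assembly as dm6), transposable elements removed. Sequences came from RefSeq's copy of that assembly. Python 3.11.15, pandas 2.3.3, numpy 2.4.6 and scipy 1.17.1 were used. With 1 condition and 2 lists no contrast between groups exists and no test was made. Wilson 95% intervals cover counting error over regions or genes only. Merging and assignment were tested on simulated intervals.

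The regions, gene lists and motifs were chosen with earlier results of these data known. Named were the 12 regions of highest mean score percentile, the 10 genes with most regions, up to 4 bound genes per list by percentile, the genes shown by the study with AGO2, the 4 best intergenic and intronic regions, the 4 widest and the 4 lowest. Exceptions, including the regions with the largest summit gaps, the highest single folds and further list members, were named after their values were seen. The sequences shown are 8 of those read at leading regions off arm 2R and were picked by class after they were seen. Alternatives changed the q-value threshold, the overlap, the number of peaks, the promoter window, the gene assigned, the TSSs, the summit and the replicates.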

Additional observations from a re-analysis of the deposited data

How the results depend on the processing

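Of 155 alternative values computed, 128 stayed within the spread between the single lists (or within 1.5 times, for counts), 27 moved and 0 changed sign. Only the median summit position could change sign, since counts and shares cannot be negative. No paired analysis was possible because the result comes from no test. With each list alone, regions numbered 1055 to 1919, bound genes 1031 to 1775, genes with 2 or more regions 183 to 404, the promoter share 75.8 to 77.4%, summits within 250 bp of a TSS 55.7 to 62.0%, the median summit position −80 to −57 bp, summits downstream 31.8 to 38.5%, median GC content 48.9 to 51.2% and windows with GAGAG 77.9 to 84.8%. The promoter share was 82.2% with 1055 top-scoring peaks per list, 69.4% with a promoter of 500 bp and 72.0% with one from the TSS to 1500 bp downstream. The GAGAG share, whose alternatives were chosen after seeing the data, was 73.9% within 50 bp of the summit, 95.2% within 200 bp and 83.4% outside soft-masked sequence. All 12 top regions were found under every alternative threshold, overlap and number of peaks and in each list alone. They were chosen by high scores in both lists, so this outcome was given by the choice and is no evidence of stability. Regions at Myo81F numbered 1 at the stricter q-value, 0 with 1055 peaks per list and 13 to 28 in single lists, and those at Eip75B and tara numbered 10 and 9 in replicate 2 alone. Assigning only the gene of the nearest TSS left 703 bound genes and moved 5 of 32 list counts: microRNA genes 4, heat shock 3, glycolysis 1, cell cycle 1 and pausing 0. The cause of these moves was not tested. Depth is unknown, and its part in the 990 of 1919 replicate 2 peaks that lay in no shared region was not tested.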
